A study of Homo sapiens with 4 samples.

Results

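Binding of the T-box transcription factor TBX3 to the genome was described at the genes of the ADAM, ADAMTS, ADAMTSL, MMP and TIMP families. The assay was ChIP-seq, in which crosslinked chromatin is pulled down with an antibody and the DNA that comes with it is sequenced. The cells were 501mel, an established human melanoma line, and per the labels TBX3-3xHA, TBX3 carrying an HA peptide tag, was pulled down with the HA antibody 12CA5 in 2 ChIP samples. The other 2 samples were input chromatin, taken without an antibody, and were not analysed here. All 4 samples come from this single line, no untagged control was analysed, no other treatment is named in the labels, and nothing in the labels says that the replicates were separate cultures. The spread between them may therefore be technical. The file headers write the tagged protein as iTBX3, and neither the meaning of this prefix nor the way the tagged TBX3 was expressed, or at what level, is given in the sources used here. The summits are therefore those of an HA pull-down of tagged TBX3, and were not compared with those of the cells' own TBX3. Without an untagged control, summits that do not depend on TBX3 could not be told apart. Expression was not measured, so the identity of the cells could not be set against marker genes, and binding near a gene says nothing of its level.

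The genes were chosen by their symbols, as every gene named ADAM, ADAMTS, ADAMTSL, MMP or TIMP followed by a number. The RefSeq gene table holds 72 of them, 70 protein-coding genes and the transcribed pseudogenes ADAM5 and ADAM6. They comprise 22 ADAM, 19 ADAMTS, 5 ADAMTSL, 22 MMP and 4 TIMP genes. Of the 72, 42 were the nearest gene of at least 1 peak summit in either list, with 101 of 32479 summits in replicate 1 (0.311%) and 133 of 40494 in replicate 2 (0.328%). Each list gives the single base of a summit in hg38, its nearest transcription start site (TSS) and a peak score, and the score is the authors' own value on a scale that is not stated. Scores and ranks (1 is the highest score of a list) were used only within their own list, and the list medians were 12.4 and 13.9. Summits of the lists that were mutually nearest and within 200 bp were paired, and a pair is called a shared region. The pairing gave 66 shared regions at 27 of the genes, 0.291% of the 22702 in the genome.

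ADAM proteins are membrane-anchored metalloproteases that release the outer parts of receptors, ligands and adhesion molecules from the cell surface. ADAMTS proteases are secreted and cut proteoglycans and procollagens, and the ADAMTSL proteins resemble them but lack the protease domain. MMPs degrade collagens and other matrix proteins, and TIMPs are inhibitors that occupy the active site of these metalloproteases. In melanoma, matrix proteolysis is known for its part in invasion.

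Promoter sequence was shown where a summit lay in it. Of the 72 genes, 43 had a promoter window in the RefSeq table of GRCh38.p14 (250 bases before to 50 after a start site, the first listed window of each gene). Of these windows, that of ADAMTS6 held a summit of both replicates and that of TIMP1 held a summit of replicate 1, and no other held one. The sequence of ADAMTS6 below is the 250 bases before its start site on the minus strand, chr5:65481921-65482170, and the capitals mark the 18 bases from the replicate 1 summit to the replicate 2 summit, both included. That of TIMP1 is 29 bases on the plus strand, chrX:47582407-47582435, and the capital marks the base of the replicate 1 summit.
ADAMTS6: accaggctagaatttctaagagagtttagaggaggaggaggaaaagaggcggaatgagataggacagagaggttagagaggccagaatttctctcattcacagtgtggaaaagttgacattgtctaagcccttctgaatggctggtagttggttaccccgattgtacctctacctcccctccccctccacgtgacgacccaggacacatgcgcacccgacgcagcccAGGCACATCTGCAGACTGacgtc
TIMP1: catttatcctctagCgctcaggccctgcc

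The ADAMTS6 sequence held no match to GGTGTGA, letters of the T-box core, on either strand. This motif occurred in 515 of 15811 protein-coding windows of 300 bases (3.26%). Among the 43 windows of these families it occurred in 3 (6.98%, 95% Wilson interval 2.4% to 18.6%), those of ADAM29, ADAMTS18 and MMP21. None of these 3 windows held a summit. The ADAMTS6 window did hold CACGTG, the E-box letters, from 63 to 58 bases before the start site, and TGACGTCA, the cAMP response element letters, from 7 bases before the start site onward. Both motifs read the same on either strand and did not overlap each other, and they were searched after the sequence had been seen. CACGTG occurred in 8.87% of all windows and in 5 of the 43, those of ADAM10, ADAM30, ADAMTS17, ADAMTS6 and MMP21. TGACGTCA occurred in 2.59% of all windows and in 1 of the 43.

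The first question was how many of these genes had a shared region close to a TSS. There were 6 such genes within 10 kb: ADAM23, ADAMTS6, ADAMTS14, ADAMTS17, ADAMTSL5 and TIMP3. They make up 8.57% of the 70 protein-coding genes (Wilson interval 3.99% to 17.5%), beside 10.1% of all 19970 protein-coding genes. The share of the families was therefore near that of genes in general. Within 1 kb only ADAMTS6 had a shared region (1.43%, beside 2.99% of all genes), and within 5 kb the count was the same (beside 6.03%). Of the 22 MMP genes, none had a shared region within 10 kb. A single list gave more, with 11 genes by replicate 1 alone (beside 13.4% of all genes) and 11 by replicate 2 alone, ADAM6 included (beside 15.5%). From either list alone the share was again close to that of all genes, at 15.7% and 14.3% of the 70.

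At any distance, 27 of the 70 genes were nearest to a shared region (38.6%, interval 28% to 50.3%), beside 28.6% of all protein-coding genes. A shared region lay inside the RefSeq span of 19 genes (27.1%, interval 18.1% to 38.5%), beside 20.9%. These genes are longer than most, with a median span of 46.8 kb against 24.2 kb. Among genes of 100 kb or more, 12 of 21 were nearest to a shared region (57.1%), beside 57.1% of all genes of that length. Between 25 and 100 kb the share was 35.0% of 20 genes, beside 31.8%, and under 25 kb it was 27.6% of 29 genes, beside 17.2%. Inside the span it was 52.4% of the 21 longest, beside 63.9%, then 30% beside 23.9%, and 6.9% beside 4.75% of the shortest. Within 10 kb, 3 of the 21 longest had a region (14.3%, beside 17.7%), 2 of the 20 of middle length (10%, beside 11.0%) and 1 of the 29 shortest (3.45%, beside 7.08%). No test was run on these shares, since the genes were not chosen independently of earlier results.

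**Figure D1:**
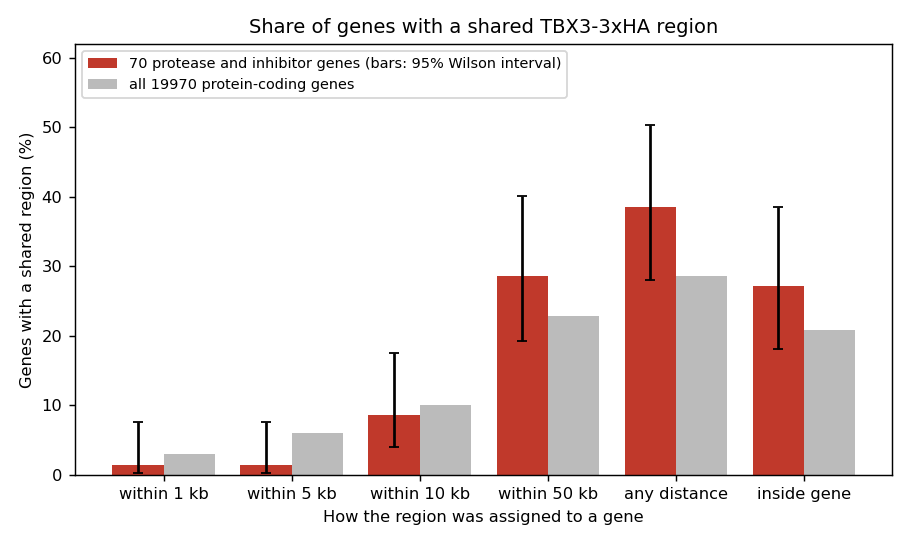
Percentage of genes (vertical axis) with a shared region under each way of assigning a region to a gene (horizontal axis), for the 70 protease and inhibitor genes in red with 95% Wilson intervals and for all 19970 protein-coding genes in grey. Within 10 kb the red bar is at 8.57% and the grey bar at 10.1%, and at any distance they are at 38.6% and 28.6%.

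Each family had genes with a shared region, at distances mostly beyond 10 kb. A shared region at any distance was found at 6 of the 20 protein-coding ADAM genes (30.0%), 9 of 19 ADAMTS genes (47.4%), 3 of 5 ADAMTSL genes (60.0%), 7 of 22 MMP genes (31.8%) and 2 of 4 TIMP genes (50.0%). The share of all protein-coding genes was 28.6%, with 57.1% at 100 kb or more and 17.2% under 25 kb. Median gene length ran from 12948.5 bp for MMP to 152907 bp for ADAMTS genes, so the family shares are not matched for length. The same background holds for the counts of smaller groups given below. By number of regions, ADAMTS genes held 24 of the 66, ADAM genes 16, TIMP genes 14, MMP genes 9 and ADAMTSL genes 3. The median distance from the TSS was 41.0 kb for ADAM, 62.1 kb for ADAMTS, 143 kb for ADAMTSL, 22 kb for MMP and 97.4 kb for TIMP regions. Over all 66 it was 51.8 kb, beside 51.1 kb for all shared regions with an annotated TSS. For the 12068 shared regions outside satellite repeats with a protein-coding nearest gene it was 34.1 kb. Without the regions of TIMP3 the median of these families was 43.4 kb. Of the 66 regions, 10.6% lay within 10 kb of the TSS, beside 20.9% of the 12068, again without matching for gene length. With so few genes in a family, the order of the families is a description of this peak set.

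**Figure D2:**
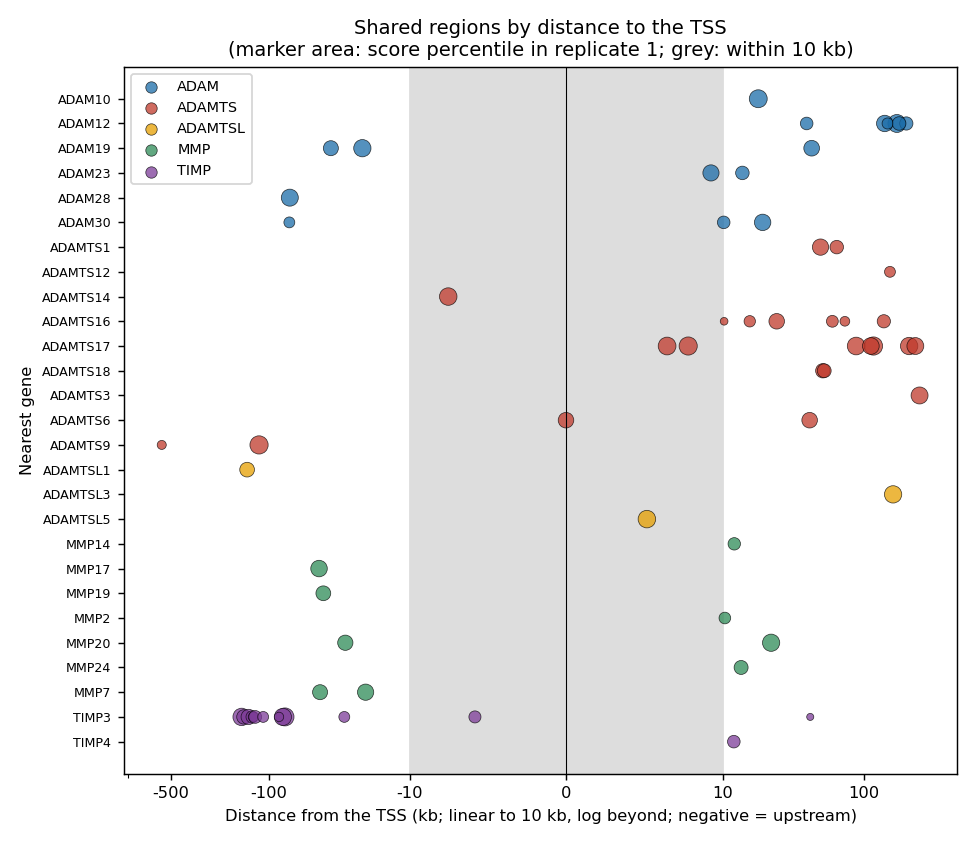
Shared regions of the 27 genes (vertical axis) by signed distance from the TSS in kb (horizontal axis, linear to 10 kb and logarithmic beyond), coloured by family, with marker area growing with the replicate 1 score percentile. The grey band within 10 kb holds 7 regions at 6 genes, and no MMP region lies in it.

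Most of these regions lay in introns, by the annotation of the replicate 1 summit. Of the 66, 46 were intronic (69.7%) and 14 intergenic (21.2%), with 3 in exons, 1 in a promoter, 1 at a gene end and 1 in an exon of a non-coding transcript. All shared regions with an annotation were 40.1% intronic and 53.7% intergenic. When satellite repeats were left out of the comparison and only regions nearest to a protein-coding gene were taken, 51.2% of 12068 were intronic. Without the 13 regions of TIMP3 the intronic share was 62.3% of 53. None of these shares was matched for gene length, and the genes of these families are longer than most. Annotated repeats held 9 of the 66 (13.6%), beside 30.0% of the 12068. The annotated transcript belonged to the nearest gene itself in 35 regions and to another gene in 17. Of these 17, 12 were TIMP3 regions in the gene SYN3.

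Scores of these regions covered nearly the whole range of the lists. They ran from 3.34 to 707 in replicate 1, with a median of 19.3, and from 3.11 to 747 in replicate 2, with a median of 34.1. The medians over all shared regions were 19.3 and 29, above the list medians of 12.4 and 13.9. A score above a list median is therefore common among shared regions, and the share above both is not given here. The top decile of each list held 12 of the 66 in replicate 1 (18.2%, beside 14.1% of all shared regions) and 14 in replicate 2 (21.2%, beside 17.6%). The regions thus had scores much like those of other shared regions, with a few near the top. Spearman's rho between the replicate scores was 0.895 over the 66 regions, beside 0.852 over all shared regions. The 66 come from the same pair of libraries and in many cases neighbour each other at one gene.

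**Figure D3:**
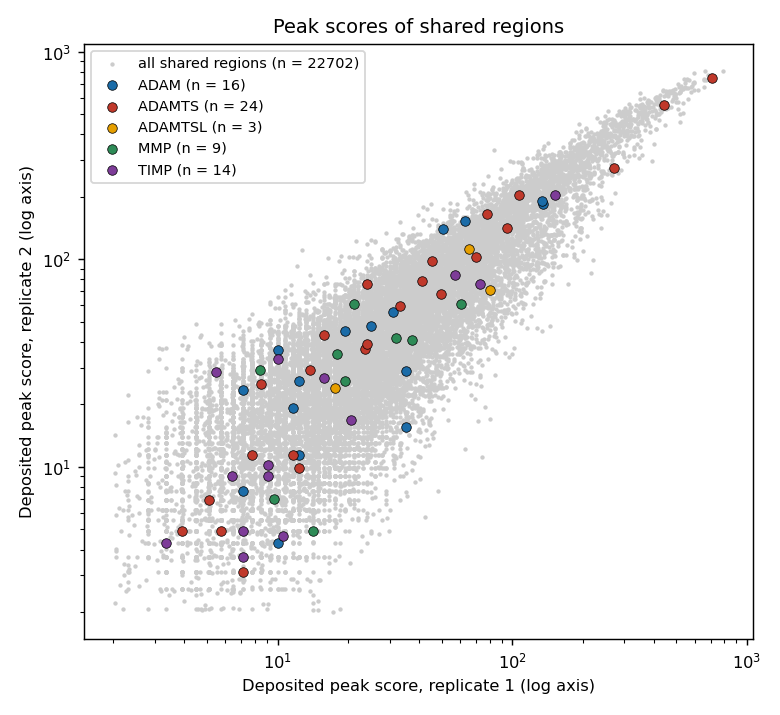
Deposited peak scores of shared regions in replicate 1 (horizontal, log axis) and replicate 2 (vertical, log axis), with all 22702 in grey and the 66 of the protease and inhibitor families coloured by family. The highest coloured point is the ADAMTS9 region at 707 and 747, and the lowest replicate 1 score among the coloured points is the TIMP3 region at 3.34 and 4.28.

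Among the catalytic ADAM genes, 5 of 12 had a shared region, and none lay within 10 kb. ADAM10, the protease that sheds Notch receptors and cadherins, had a summit at 58732147 in replicate 1 and 58732098 in replicate 2 on chromosome 15. It lay in intron 1 of 15, 17831 bp downstream of the TSS, with scores of 135 and 184. The ADAM10 region thus ranked 1195 and 1462. ADAM17, the main sheddase of tumour necrosis factor, had a single replicate 2 summit 9827 bp upstream of its TSS, with a score of 9.86 and no partner.

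ADAM12, which cleaves insulin-like growth factor binding proteins and growth factor precursors, had 6 shared regions over 161 kb of chromosome 10. All of them were intronic and 39338 to 200577 bp downstream of the TSS. The strongest, with summits at 126216610 and 126216634 in intron 3 of 22, scored 134 and 190.2. The other ADAM12 regions had scores of at most 35.2 in replicate 1 and 36.4 in replicate 2. Of the 6 ADAM12 regions, 2 scored above the median of both lists and 1 below both.

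ADAM19, a protease that can release neuregulins, had 3 shared regions, each above the median score of both lists. The strongest lay 21733 bp upstream of the TSS, with summits at 157597556 and 157597492 on chromosome 5, of which the first alone is annotated in an L2 element, and scores of 62.8 and 152. Its ranks were 3715 and 1947. ADAM28 had 1 shared region, 71137 bp upstream of its TSS in an LTR element on chromosome 8, scoring 50.8 and 139.8. ADAM30, a gene best known from testis, had 3 regions of which 2 scored under the median of both lists. One of these lay in the neighbouring gene NOTCH2, 71684 bp upstream of the ADAM30 TSS, with its replicate 1 summit in exon 7 of 34 and its replicate 2 summit in intron 6 of 21.

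Among the 8 ADAM genes without an active protease site, ADAM23 alone had shared regions. ADAM23 is a neuronal adhesion protein that binds the secreted protein LGI1. The nearest to its TSS, 9239 bp downstream in intron 2 of 25, had its summits at 206452883 and 206452924 of chromosome 2. It scored 31 and 55.9 (ranks 7729 and 6622). A further region lay in the same intron at 13758 bp, with scores of 12.4 and 26. Replicate 2 had 3 more ADAM23 summits, none of which had a partner.

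ADAMTS17 had more shared regions than any other ADAMTS gene. It encodes a secreted protease linked to fibrillin microfibrils and to a Weill-Marchesani-like syndrome. Its 7 shared regions lay in introns over 226 kb of chromosome 15, and all 7 scored above the median of both lists. Scores ran from 41.1 to 442 in replicate 1 and from 78.5 to 555 in replicate 2. At least as many shared regions were found at 240 of the protein-coding genes (1.20%). This share was not matched for gene length, and ADAMTS17 spans 370539 bp, beside a median of 24.2 kb over all protein-coding genes.

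The strongest ADAMTS17 region had summits at 100224725 and 100224721 in intron 7 of 21, 117280 bp downstream of the TSS. It scored 442 and 555 and ranked 70 and 90. A pair of regions in intron 2 of 21 lay within 10 kb. The first had summits at 100334221 and 100334237, 7784 bp from the TSS, with scores of 270.4 and 274 (ranks 297 and 700). The other had summits at 100335569 and 100335579, 6436 bp from the TSS, with scores of 107 and 205 (ranks 1816 and 1214). The region in intron 7 at 88329 bp, with summits at 100253676 and 100253677, scored 95.4 and 142. A further 2 shared regions inside ADAMTS17 were nearer to the TSS of LOC400464.

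Of the 7 proteoglycanase genes, ADAMTS1 and ADAMTS9 had shared regions. ADAMTS9, which cuts versican and aggrecan, had the highest-scoring region of all 66, 117634 bp upstream of its TSS in intron 2 of 5 of the antisense transcript ADAMTS9-AS2, with summits at 64805323 and 64805331 of chromosome 3. Its scores were 707 and 747 (ranks 2 and 7), whereas its other region, 576997 bp upstream, scored 5.12 and 6.91. ADAMTS1 had 2 intergenic regions downstream of its TSS, and the nearer, at 49344 bp, scored 33.1 and 59.6.

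Of the 3 procollagen N-proteinases, which trim the amino-terminal propeptide of fibrillar collagens, ADAMTS14 had a region within 10 kb and ADAMTS3 had one 249045 bp into its own gene. The ADAMTS14 summits, at 70664959 and 70664931 on chromosome 10, were intergenic and 7547 bp upstream of the TSS. They scored 77.8 and 165 (ranks 2848 and 1728). The ADAMTS3 region scored 49.7 and 68.3.

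ADAMTS6 was the only gene of these families with a shared region at the promoter. The summits, at 65481943 in replicate 1 and 65481926 in replicate 2, lay 23 bp and 6 bp upstream of the TSS, and the sequence is the one printed above. Scores there were 24.0 and 39.2, with ranks of 9993 and 9247, at percentiles 69.2 and 77.2 of the lists. Another region lay in an L1 element inside an intron of the gene, 41303 bp downstream, with scores of 24.0 and 75.9. ADAMTS6 has been linked to fibrillin microfibrils, like the related ADAMTS10, which had only an unpaired replicate 2 summit.

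ADAMTS16 had many weak summits. Replicate 1 had 14 and replicate 2 had 13, of which only 6 formed shared regions, spread over 129 kb on chromosome 5. Shared scores ran from 3.91 to 23.7 in replicate 1 and from 4.90 to 36.9 in replicate 2. Of the 6, 4 scored under the median of both lists. ADAMTS18 had 2 regions in intron 3 of 22, scoring 15.8 and 43.1 at 51223 bp and 13.8 and 29.2 at 52412 bp. ADAMTS12, which cleaves the cartilage protein COMP, was nearest to 1 weak region (7.12 and 3.11).

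Among the ADAMTSL genes, ADAMTSL5 had a region in exon 7 of 12. The summits, at 1508043 and 1508053 on chromosome 19, were 5146 bp downstream of the TSS and scored 80.1 and 70.9 (ranks 2763 and 5192). ADAMTSL3 had a region in intron 5 of 29, 161574 bp downstream of its TSS, scoring 65.2 and 112. The region of ADAMTSL1 lay 142955 bp upstream of its annotated TSS, yet inside the RefSeq span of the gene. It scored 17.5 and 24.0. ADAMTSL4 had an unpaired replicate 2 summit, and ADAMTSL2 had none.

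**Figure D4:**
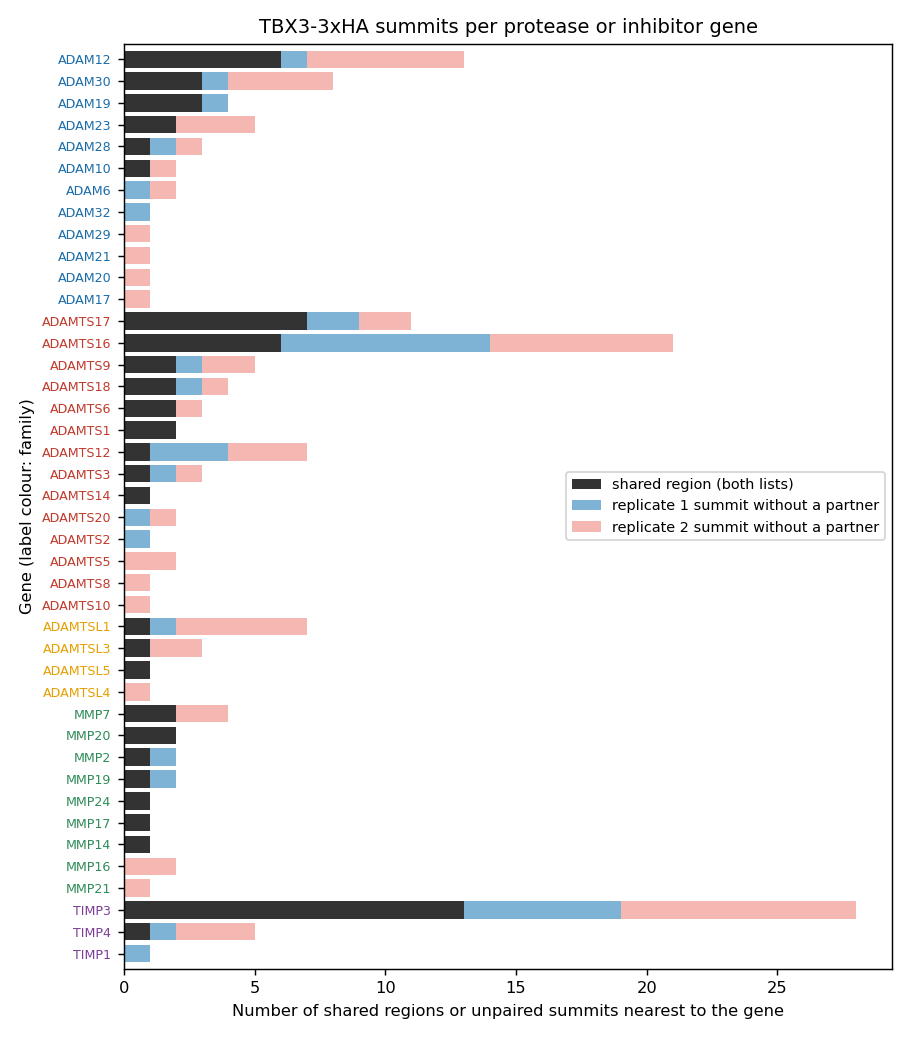
Number of shared regions (black), unpaired replicate 1 summits (blue) and unpaired replicate 2 summits (pink) on the horizontal axis for each of the 42 genes nearest to a summit (vertical axis, label colour by family). TIMP3 has the longest bar with 13 shared regions, and ADAMTS17 has 7.

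Collagenases and stromelysins had no summit in either list. MMP1, MMP8 and MMP13, which cut fibrillar collagen, and MMP3, MMP10 and MMP11 were each without one. MMP9, a gelatinase, also had none. Most genes lack a summit, since 34.1% of all protein-coding genes were nearest to one in replicate 1 and 38.4% in replicate 2. All of the genes just named are under 25 kb, and 17.2% of all genes of that length were nearest to a shared region. MMP2, the other gelatinase, had a region in exon 8 of 13 with summits at 55491888 and 55491891 on chromosome 16. This region lay 10331 bp downstream of a TSS and scored 8.44 and 29.2, so it was below the median score in replicate 1 and above it in replicate 2.

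Of the 9 MMP genes side by side on chromosome 11, from 102520508 to 102955732, MMP7 and MMP20 were nearest to a shared region. The share was 28.6% over all protein-coding genes and 17.2% over those under 25 kb. The 435 kb held 4 summits of replicate 1 and 5 of replicate 2, and 4 of these formed shared regions. This density was not set against that of the genome. MMP20, the enamel protease, had a region in intron 6 of 9 with summits at 102603328 and 102603326, which scored 60.3 and 60.8. Another, 28713 bp upstream, scored 21.2 and 60.8. MMP7, or matrilysin, had regions 20602 bp and 43370 bp upstream, scoring 32.0 and 41.9 and then 19.3 and 26. The second of these had its summit at 102574123 in both lists.

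Of the 6 membrane-type MMP genes, 3 had a shared region. MMP14, the membrane protease that activates MMP2, had a weak region at its gene end, 12047 bp from the TSS, scoring 9.62 and 7. MMP17 was nearest to a region in intron 14 of 17 of SFSWAP, 44117 bp upstream, which scored 37.3 and 40.9. The MMP24 region, 13472 bp downstream, scored 14.1 and 4.90. MMP19 was nearest to a region in an LTR element 41126 bp upstream, with scores of 18.0 and 35.1. The highest score of any MMP region was 60.3 in replicate 1 and 60.8 in replicate 2, below the highest of the other families.

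TIMP3 had more shared regions than any other of the 72 genes. It encodes the inhibitor that is bound to the matrix and acts on ADAM and ADAMTS proteases as well as MMPs, and it lies inside the synapsin gene SYN3. Of its 13 shared regions, 12 lay in intron 6 of 13 of SYN3, from 5841 to 156300 bp upstream of the TIMP3 TSS. The 13th lay in intron 1 of 4 of TIMP3, 41705 bp downstream, and scored 3.34 and 4.28. At least as many regions were found at 38 of the protein-coding genes (0.19%), a share not matched for the length of the gene or of its host. The nearest TSS alone assigns these regions to TIMP3, and which gene they act on, if any, was not measured.

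TIMP3 regions mostly had low scores. The median score was 9.08 in replicate 1 and 10.2 in replicate 2, and 7 of the 13 scored under the median of both lists. The strongest had summits at 32723874 and 32723860 on chromosome 22, 76942 bp upstream, with scores of 152 and 205 (ranks 958 and 1212). A region 79663 bp upstream scored 57.2 and 83.9, and one 156300 bp upstream scored 72.8 and 75.7. The region within 10 kb had summits at 32794975 and 32794971, 5841 bp upstream of the TSS, and scored 9.07 and 10.2 (ranks 20667 and 24485). TIMP3 had 19 summits in replicate 1 and 22 in replicate 2.

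**Figure D5:**
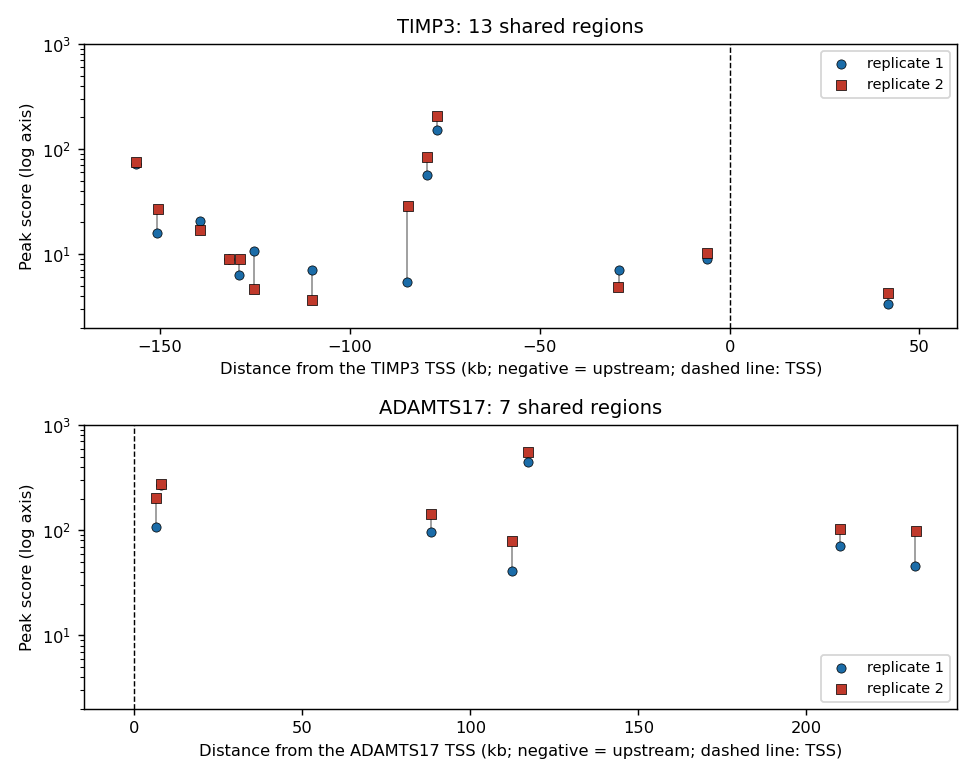
Peak scores (vertical, log axis) of the shared regions of TIMP3 (upper panel) and ADAMTS17 (lower panel) by distance from the TSS in kb (horizontal axis), with circles for replicate 1, squares for replicate 2 and a line joining each pair. ADAMTS17 scores lie between 41.1 and 555, and TIMP3 scores between 3.34 and 205.

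TIMP4, which likewise lies in a synapsin gene, SYN2, had 1 shared region in intron 4 of 10 of that gene, 11960 bp from the TSS, with scores of 10.0 and 33.2. TIMP1 had a summit in replicate 1 only, at 47582421 on chromosome X, in the first exon of the annotated transcript and 130 bp downstream of its TSS. The RefSeq window places the same base 15 bp upstream of its own start site, since the tables take different start sites. The TIMP1 summit scored 21.7 and was the highest of the 35 unpaired replicate 1 summits of these families. TIMP2 was nearest to no summit in either list.

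Regions inside a gene but nearer to the TSS of another gene were counted apart. Such regions numbered 20 of the 55 that lay inside these genes. The same share over all protein-coding genes was not computed. ADAMTS12 held one in intron 12 of 21, at 33619086 and 33619077 of chromosome 5, that scored 183 and 217 (ranks 695 and 1079) and was nearest to TARS. ADAMTSL1 held one in intron 4 of 28, at 18611218 and 18611228 of chromosome 9, with scores of 139.8 and 184. TIMP2 and ADAMTS4 had shared regions by this count alone, with 3 in TIMP2 and 1 in ADAMTS4. ADAM12 and ADAMTS17 each held 9 regions by their span. These regions were picked out after their values were seen.

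The remaining genes are named here. Summits occurred in replicate 2 only for ADAM17, ADAM20, ADAM21, ADAM29, ADAMTS5, ADAMTS8, ADAMTS10, ADAMTSL4, MMP16 and MMP21, and in replicate 1 only for ADAM32, ADAMTS2 and TIMP1. ADAM6 and ADAMTS20 had summits in both lists but no pair. The other 30 genes were nearest to no summit. These were ADAM2, ADAM5, ADAM7, ADAM8, ADAM9, ADAM11, ADAM15, ADAM18, ADAM22, ADAM33, ADAMTS4, ADAMTS7, ADAMTS13, ADAMTS15, ADAMTS19, ADAMTSL2 and TIMP2, and the MMP genes MMP1, MMP3, MMP8, MMP9, MMP10, MMP11, MMP12, MMP13, MMP15, MMP25, MMP26, MMP27 and MMP28. The absence of a summit is limited by depth and threshold, both unknown, and does not show that TBX3 was absent.

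Summits of these families recurred in a share near that of others, though lower in both lists. Of the 101 in replicate 1, 65.3% had a partner (interval 55.7% to 73.9%), beside 69.9% of all. Of the 133 in replicate 2, 49.6% had one (41.3% to 58.0%), beside 56.1%. The intervals treat summits as independent, though many neighbour each other at one gene, as the 19 and 22 of TIMP3 do. Those without a partner were weak, with a median score of 6.43 in replicate 1 and 6.22 in replicate 2. The highest unpaired score in replicate 2 was 39.8, at MMP21. Taking single lists, 5 genes had an unpaired replicate 1 summit within 10 kb and 7 had an unpaired replicate 2 summit there. The share of all protein-coding genes with such an unpaired summit was not computed, so these counts are a description only. MMP2 and MMP19 were among the genes of replicate 1, and ADAM12 and ADAM17 among those of replicate 2.

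Regions lay close to the 10 kb limit on both sides. Just inside it were the ADAMTS17 region at 7784 bp (scores 270.4 and 274) and the ADAM23 region at 9239 bp (31 and 55.9). Just outside were regions of ADAM30 at 10136 bp (scores 10.0 and 4.28), ADAMTS16 at 10205 bp (3.91 and 4.90) and MMP2 at 10331 bp (8.44 and 29.2). The regions just outside scored below the replicate 1 list median, and those just inside scored above the median of both lists. This holds for the regions listed only, since the TIMP3 region further inside, at 5841 bp, scored below both medians (9.07 and 10.2).

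A list of 38 other genes of the same processes was examined in the same way. It held regulators of the sheddases, plasminogen activators and their inhibitors, convertases, other metalloproteases, shed ligands and proteoglycan substrates. Of the 38, 4 had a shared region within 10 kb (10.5%, beside 10.1% of all protein-coding genes) and 16 at any distance (42.1%, beside 28.6%). Shares by gene length were not computed for this list, so the difference at any distance is not matched for length. The 4 genes with a region within 10 kb were PLAT, TSPAN14, TSPAN5 and FURIN. PLAT encodes tissue plasminogen activator, TSPAN14 and TSPAN5 are tetraspanins that guide ADAM10 to the cell surface, and FURIN is the convertase that activates many of these proteases. The strongest of the 3 PLAT regions within 10 kb lay 2246 bp from the TSS and scored 26.6 and 55.4. TSPAN14 followed with 19.1 and 38.2 at 3598 bp, TSPAN5 with 14.7 and 25 at 4565 bp, and FURIN with 8.84 and 9.41 at 1228 bp. No region near PLAU, PLAUR, RECK or BSG lay within 10 kb.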

How the data were processed

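ChIP-seq peak lists of the 2 TBX3-3xHA samples were analysed. Per the file headers, each was made by annotating the peak summits of a single replicate with annotatePeaks.pl against hg38. The submitters' processing notes name FastQC 0.11.7, cutadapt 2.8, Bowtie2 2.3.5, MACS2 2.1.2 and SAMtools 1.9, without roles or thresholds. Peak scores are as deposited, and their scale is not given in the sources used here. Read depth is unknown, so intervals cover counting error only. The distance to the TSS, the nearest gene and the location class are the deposited ones of replicate 1, unless both are given.

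Pairing, counting and percentages were computed in Python 3.11.15 with pandas 2.3.3. Wilson intervals came from statsmodels 0.14.6. The pairing was run on simulated summits, with those of the first list spaced apart and planted partners well inside the pairing distance. That run therefore does not cover crowded summits or pairs near the limit. All protein-coding genes on chromosomes 1 to 22 and X of the RefSeq table of GRCh38.p14 (19970) served as the background, and genes were matched by Entrez identifier (members by symbol). The sequences are RefSeq's, from GRCh38.p14, the assembly that hg38 names.

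The genes, the roles and the list of other genes were chosen with earlier results of these data known, so no test was run. The rule for naming took every gene with a region within 10 kb, the 10 regions with the lowest sum of ranks, the 3 genes of each family with the most regions and the neighbours of the 10 kb limit. Other genes and regions were named after their values were seen. Motif matches around summits outside the promoter table were not analysed here.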

Additional observations from a re-analysis of the deposited data

How the results depend on the processing

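Of 58 alternatives over 6 results, 32 kept the count within 1.5 times the reported one, or the percentage within its spread. Those of the span count, except nearest gene in place of span, were chosen after seeing the data. With both summits at the same base, 0 genes had a region within 10 kb (0.170% of all genes), 2 at any distance with 2 regions, and 0 in the span. The 5000 highest scores of each list gave 2 genes within 10 kb (2.52% of all genes), 9 at any distance with 15 regions, and 6 in the span. Scores at or above the median left 40 regions, with 7.21% of all genes within 10 kb. These settings leave fewer summits. Pairing within 50 bp gave 8.09% of all genes. Limits of 1, 5 and 50 kb gave 1, 1 and 20 genes, beside 2.99%, 6.03% and 22.9% of all genes. Leaving out a replicate and using the other list alone gave 11 and 11 genes within 10 kb, 1 of them ADAM6 in replicate 2, beside 13.4% and 15.5% of all genes, and 101 and 133 summits. Without summits in satellite repeats the values were 66 regions and 10.1% of all genes. AGGTGTGA in place of GGTGTGA gave 0% of the promoters. The share of motifs in 50 bp around summits was not run, since no genome was used here. No paired analysis was possible because only the ChIP group had files and no group comparison was made. Depth limits every count of genes without a summit.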

Other observations

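Some summits of these families missed the pairing distance by little. Within 500 bp, 5 more pairs formed, at ADAMTS18 (203 bp apart, scores 19.3 and 15.6), ADAM30 (209 bp), ADAM28 (229 bp), ADAMTSL1 (291 bp) and ADAMTS16 (484 bp). None of them added a gene to the 27 with a shared region. The ADAM30 pair lay in NOTCH2 on chromosome 1, with summits at 119948518 and 119948727.

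The number of regions rests on a few genes. Without TIMP3, 53 regions remained at 26 genes. Without TIMP3, ADAMTS17, ADAM12 and ADAMTS16, 34 regions remained at 23 genes. Of the 27 genes, 14 had a single region.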
